A study of Mus musculus with 6 samples.

Results

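The angiopoietin-Tie receptor system was examined through 5 mouse genes, Tek, Tie1, Angpt1, Angpt2 and Ptprb, which were picked by symbol from the 23420 gene symbols of the count table. Among the 11608 genes that passed the filter on low counts were 4 of these 5, and Angpt1 did not pass it. Angiopoietins are secreted ligands of the receptor tyrosine kinase Tie2, which Tek encodes. Angiopoietin-1 activates Tie2 and keeps the endothelium quiescent, whereas angiopoietin-2 is released by endothelial cells and can act as an agonist or an antagonist depending on context. Tie1 is a receptor without a well-defined ligand of its own that associates with Tie2, and Ptprb encodes VE-PTP, an endothelial receptor phosphatase that dephosphorylates Tie2 and associates with VE-cadherin. Integrin-β1 is known to take part in angiopoietin signalling, and the members were compared between cells that carry different forms of this integrin.

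The cells were eEnd2, an endothelial line from mouse embryos, stably transfected with a chimera of human Integrin-β1A and extracellular GFP under a short human β-actin promoter. The chimera was either wildtype (β1-WT-GFP) or carried K794Q (β1-K794Q-GFP), the exchange of a lysine in the cytoplasmic tail for glutamine, which mimics its acetylation. Both kinds of cells were sorted for GFP, were grown to confluence in DMEM with FCS and still had their own mouse Itgb1. For each kind, 3 cultures named A, B and C gave total RNA that was depleted of ribosomal RNA and sequenced. The labels speak of a population with low and another with high GFP, and the population from which each culture was taken is not given in the sources used here. The p-values measure the spread between these cultures, which come from transfected and sorted lines. They do not cover the spread between separate transfections, of which the sources used here describe no repeat. A difference due to the form of the integrin thus cannot be told apart from one between the lines. Cultures A to C of β1-WT-GFP cells held totals of 10918600, 9589826 and 15287191 counts, and those of β1-K794Q-GFP cells 10203916, 11197729 and 11071680.

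A culture of each group stood apart from the others. For β1-WT-GFP cells, 148 tested genes were at least 2-fold apart when cultures A and B were set side by side, whereas culture C differed that much from A in 2883 genes and from B in 2728. For β1-K794Q-GFP cells, cultures A and C were 2-fold apart in 1021 genes, whereas culture B differed that much from A in 2126 genes and from C in 2707. The fits were therefore repeated with each of these 2 cultures left out and with both left out.

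None of the 4 tested members was past both thresholds, which were a 2-fold change and an unadjusted p of at most 0.05 in edgeR's quasi-likelihood test. Across all tested genes 603 passed (5.19%), of which 404 were raised (3.48%) and 199 lowered (1.71%) in the β1-K794Q-GFP cells. The count was 942 without β1-K794Q-GFP culture B, 992 without β1-WT-GFP culture C and 1661 without both. At an unadjusted p of at most 0.05 and any fold, 1 of the 4 members, Ptprb, was counted, against 10.2% of all tested genes. DESeq2 and the likelihood ratio test of edgeR placed 0 of the 4 members past both thresholds, against 5.99% and 6.26% of all tested genes. After Benjamini-Hochberg adjustment over all tested genes, 21 genes (0.181%) had an edgeR adjusted p of at most 0.05, and no member was among them. This count changed with the cultures, the filter, the design and the test. Leaving out β1-K794Q-GFP culture A or C or β1-WT-GFP culture A gave 0. The count was 1 without β1-WT-GFP culture B, 28 without β1-WT-GFP culture C and 125 without β1-K794Q-GFP culture B. It was 1796 when both cultures that stood apart were left out. With at least 10 counts asked of every culture it was 4, and with the culture letter as a block it was 1. DESeq2 gave 477 and the likelihood ratio test 318. In bulk RNA, fewer cells with a transcript and less transcript per cell cannot be told apart.

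**Figure D1:**
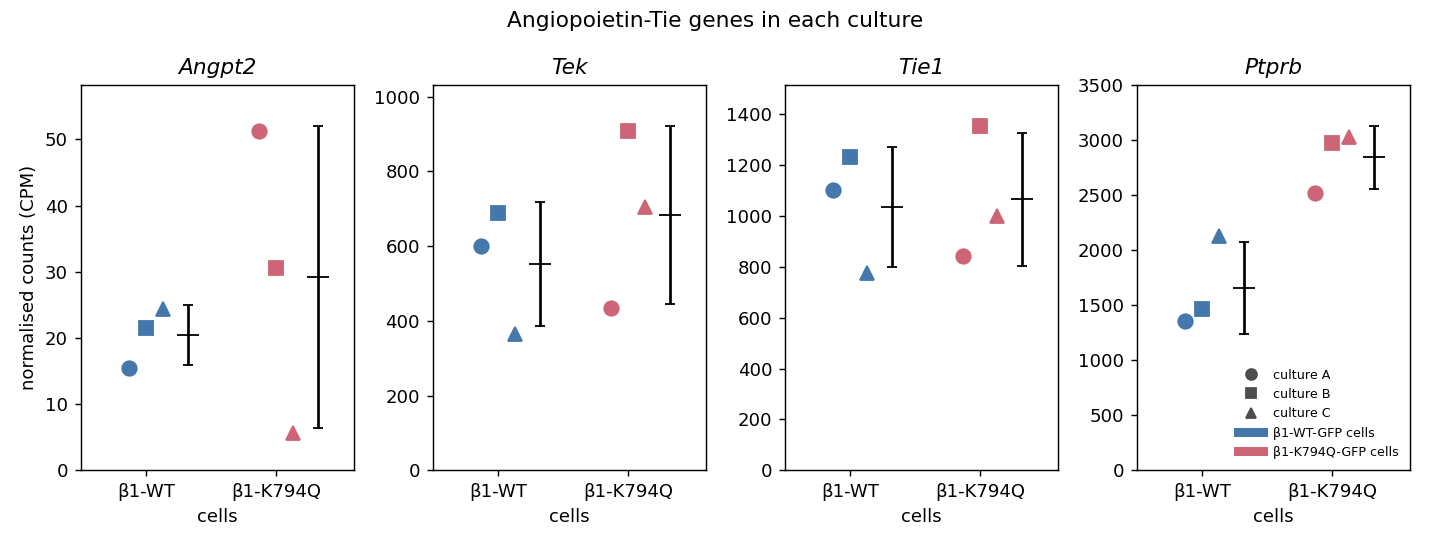
Normalised counts (CPM, scaled to the library total after TMM normalization) of Angpt2, Tek, Tie1 and Ptprb, 1 point per culture, with β1-WT-GFP cells in blue and β1-K794Q-GFP cells in red and the group mean ± SD (n = 3) in black. The groups overlap for Angpt2, Tek and Tie1, and for Ptprb the β1-K794Q-GFP cultures (2516 to 3031 CPM) lie above the β1-WT-GFP cultures (1359 to 2132 CPM).

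Of the ligands, Angpt2 was detected in each culture and Angpt1 was at or under the limit of detection. Angpt1 (chr15:42424723-42676977, minus strand, GRCm38) had 3, 0 and 1 counts in cultures A to C of β1-K794Q-GFP cells. It had 0 counts in each of the 3 β1-WT-GFP cultures. A count of 0 allows up to 3 counts, which is between 0.209 and 0.3 CPM in these libraries and covers counting error only. No fold change is given for Angpt1 because both groups were at or under this limit, and a difference was not detectable at this depth. Angpt4, the remaining angiopoietin gene, had 0 counts in all 6 cultures.

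Angpt2 (chr8:18690263-18741562, minus strand) measured 15.5, 21.5 and 24.3 CPM in cultures A to C of β1-WT-GFP cells. In β1-K794Q-GFP cells it measured 51.3 CPM in culture A, 30.5 CPM in culture B and 5.68 CPM in culture C. The lowest and the highest of the 6 values were thus both in β1-K794Q-GFP cells, 9.04-fold apart, while the β1-WT-GFP cultures were within 1.57-fold. The means were 29.2 ± 22.8 CPM in β1-K794Q-GFP cells and 20.4 ± 4.51 CPM (SD, n = 3 each) in β1-WT-GFP cells. Angpt2 had an estimated log2 fold change of 0.51 (SE 0.70, 95% confidence interval -1.19 to 2.21) and an edgeR adjusted p of 0.896. The estimate was set by single cultures, as leaving out β1-K794Q-GFP culture A gave -0.18 and leaving out β1-K794Q-GFP culture C gave 1.00, past both thresholds. Adjusted p values for Angpt2 ranged from 0.477 to 0.999 over the alternatives. The SD of log2 CPM over the 6 cultures was 1.06 for Angpt2, as large as or larger than that of 88.5% of the tested genes.

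Angpt2 lies within Mcph1, a gene of chromosome condensation on the opposite strand, without overlap of annotated exons. Whether the counting used strand is not given in the sources used here, so reads of unspliced Mcph1 and of Angpt2 could not be told apart. Mcph1 had 28.6, 21.9 and 26 CPM in cultures A to C of β1-K794Q-GFP cells and 20.5, 17.3 and 32.9 CPM in cultures A to C of β1-WT-GFP cells. Angpt1 shares exon sequence with the antisense gene Gm17473, which is not in the count table.

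The balance of both ligands was described as Angpt2 to Angpt1 counts per kilobase of exon. Where Angpt1 had 0 counts, Angpt2 was at least 83.2-fold higher in β1-WT-GFP culture A, 101-fold in B and 164-fold in C, and at least 145-fold higher in β1-K794Q-GFP culture B. In β1-K794Q-GFP culture A the ratio was 251 (exact 95% counting interval 85.3 to 1219), and in culture C it was 93.1 (16.1 to 3732). Angpt2 was the predominant ligand transcript in each of the 6 cultures, and the ratio was not compared between the groups.

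The receptor genes Tek and Tie1 were abundant and varied more between cultures of a group than between the groups. Tek (chr4:94739289-94874976, plus strand) measured 601, 688 and 366 CPM in cultures A to C of β1-WT-GFP cells and 434, 908 and 706 CPM in cultures A to C of β1-K794Q-GFP cells. The lowest value was in β1-WT-GFP culture C and the highest in β1-K794Q-GFP culture B, the cultures that stood apart, and the groups overlapped. The means were 683 ± 238 CPM in β1-K794Q-GFP cells and 552 ± 166 CPM (SD, n = 3 each) in β1-WT-GFP cells. Tek had a log2 fold change of 0.31 (SE 0.37, 95% confidence interval -0.59 to 1.21) and an edgeR adjusted p of 0.873. Leaving out β1-K794Q-GFP culture B gave 0.06, leaving out β1-WT-GFP culture C gave 0.09 and leaving out both gave -0.16.

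Tie1 (chr4:118471191-118490061, minus strand) measured 1101, 1230 and 774 CPM in cultures A to C of β1-WT-GFP cells. For cultures A to C of β1-K794Q-GFP cells the values were 841, 1353 and 1001 CPM. As for Tek, culture C was the lowest of the β1-WT-GFP cells and culture B the highest of the β1-K794Q-GFP cells. The means of 1065 ± 262 CPM in β1-K794Q-GFP cells and 1035 ± 235 CPM (SD, n = 3 each) in β1-WT-GFP cells were closer than their spread. The log2 fold change of Tie1 was 0.04 (SE 0.30, 95% confidence interval -0.69 to 0.77, edgeR adjusted p 0.979). It turned to -0.16 without β1-K794Q-GFP culture B, to -0.12 without β1-WT-GFP culture C and to -0.32 without both.

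The log2 CPM of Tek and Tie1 gave a Pearson r of 0.93 and a Spearman rho of 0.83 over 6 cultures, and r was 0.67 over the 4 cultures left without β1-K794Q-GFP culture A and β1-WT-GFP culture C, which lay farthest from the median of Tek. Both values of a point come from the same library, and the r is a description of these cultures. Tek and Ptprb had an r of 0.16, which was 0.75 without the same 2 cultures. Without the 2 cultures farthest from the median of the first gene named, r went from -0.13 to -0.73 for Tie1 and Ptprb, from -0.34 to 0.25 for Angpt2 and Tek, from -0.13 to 0.15 for Angpt2 and Tie1 and from -0.04 to 0.92 for Angpt2 and Ptprb. Both receptor genes lie on chromosome 4 without neighbours in common, and the median log2 fold change was -0.17 over the 9 tested genes within 2 Mb of Tek and -0.15 over the 50 within 2 Mb of Tie1, against -0.02 over all tested genes.

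The promoters of Tek and Tie1 were searched for the core motif of ETS factors, which regulate many endothelial promoters. RefSeq promoters (GRCm38.p6, 300 bases around the RefSeq gene start) were matched for 2 of the 5 members, Tek and Tie1. The Tie1 window, chr4:118489800-118490099, lies mostly inside the gene as positioned above, whose start is at 118490061. The core GGAA, read on both strands, occurs 2 times in the promoter of Tek and 9 times in that of Tie1, with a median of 3 over all 32851 promoters, 96.0% of which hold it. The longer AGGAAG, which contains the core, occurs 0 times for Tek and 2 times for Tie1 and in 35.4% of all promoters. The GATA motif AGATAA occurs 1 time for Tek and 0 times for Tie1 (11.2% of promoters), and the forkhead motif GTAAACA 0 times for both (3.6%). The E-box CANNTG occurs 2 times for Tek and 1 time for Tie1 (72.3%), and TATAAA 0 times for both (13.6%). A stretch of 30 bases before each annotated gene shows a core match in capitals, on the strand of the gene, at chr4:94739187-94739216 (plus) for Tek and at chr4:118490064-118490093 (minus) for Tie1. In the Tek stretch the core is read on the opposite strand.
Tek: gcttgttattcaaTTCCtggcctatgagag
Tie1: cttctcaataggcGGAAgccactggcttcc
These matches describe letters in the sequence, and binding of a factor was not measured.

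Ptprb was the only tested member whose groups did not overlap. Ptprb (chr10:116275523-116389535, plus strand) measured 1359, 1467 and 2132 CPM in cultures A to C of β1-WT-GFP cells. For cultures A to C of β1-K794Q-GFP cells the values were 2516, 2977 and 3031 CPM. Each of the β1-K794Q-GFP cultures was above each of the β1-WT-GFP cultures, which holds for 8.45% of all tested genes, while 8.12% show the opposite. The mean was 2842 ± 283 CPM in β1-K794Q-GFP cells and 1653 ± 418 CPM (SD, n = 3 each) in β1-WT-GFP cells, a fitted fold change of 1.72. In edgeR's test the log2 fold change was 0.78 (SE 0.30, 95% confidence interval 0.05 to 1.51), with an adjusted p of 0.441 over all tested genes. Ptprb therefore met the threshold for the unadjusted p, stayed under that for the fold and did not pass the adjustment. With 1 culture left out, the unadjusted p was over its threshold in 5 of 6 fits, all but that without β1-WT-GFP culture C, and it was also over it without the filter on low counts. Its exact two-sided permutation p was 0.1, the smallest that 3 cultures against 3 allow. β1-WT-GFP culture C was the highest of its group, and without it the log2 fold change was 1.02, past both thresholds. Over all alternatives the adjusted p of Ptprb ranged from 0.0556 to 0.981.

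**Figure D2:**
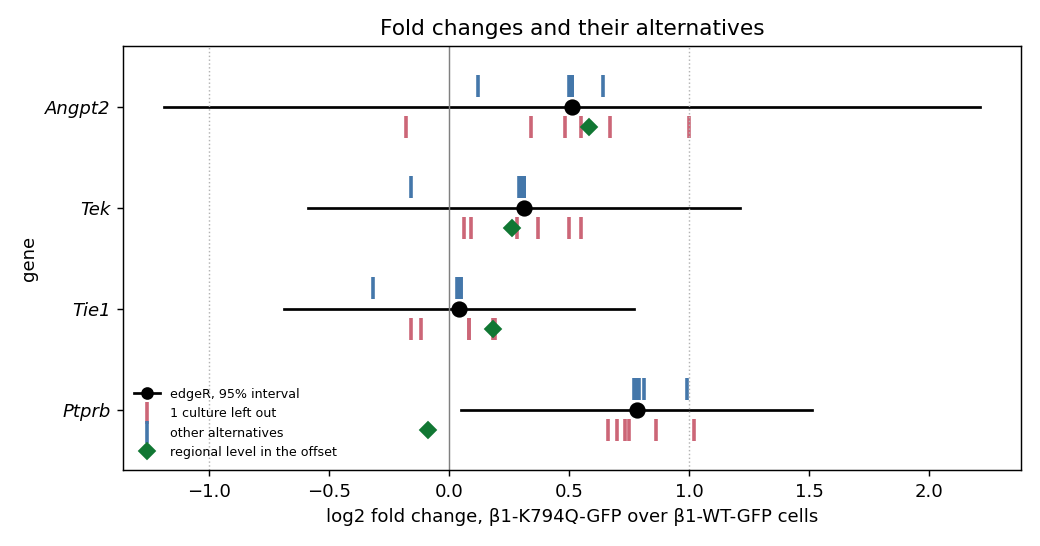
Log2 fold change of Angpt2, Tek, Tie1 and Ptprb in β1-K794Q-GFP over β1-WT-GFP cells, with the edgeR estimate and its 95% confidence interval in black, fits with 1 culture left out as red ticks, other alternatives as blue ticks and the fit with the regional level in the offset as green diamonds; dotted lines mark a 2-fold change. Only the interval of Ptprb (0.05 to 1.51) lies above 0, and its estimate is -0.09 with the regional level in the offset.

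The genes around Ptprb on chromosome 10 were compared with it. Of the 19 tested genes that start within 2 Mb of the start of Ptprb, 8 were higher past both thresholds and 0 were lower, against 3.48% and 1.71% of all tested genes. The fitted log2 fold change was above 0 for each of the 19 (for 18 without β1-K794Q-GFP culture A, where 4933412E12Rik was not, and for 18 without β1-K794Q-GFP culture B, where Tspan8 was not), with a median of 1.05 against -0.02 over all tested genes, and in 11 of them the β1-K794Q-GFP cultures were all above the β1-WT-GFP cultures (8.45% of all tested genes). With 1 culture left out, the 8 higher genes became 4 (2.95% of all genes in that fit were higher), 12 (5.25%) and 6 (3.29%) without β1-K794Q-GFP culture A, B or C, and 5 (2.86%), 7 (2.67%) and 9 (5.99%) without β1-WT-GFP culture A, B or C. Without both cultures that stood apart they were 14 of 18 (10.1%). Neighbouring genes are not independent of each other. The regional level, the median log2 ratio to β1-WT-GFP cells over the 25 nearest tested genes without Ptprb itself, was 1.31, 0.42 and 1.11 in cultures A to C of β1-K794Q-GFP cells. On the same scale Ptprb was at 0.64, 0.88 and 0.90, so it lay below its region in cultures A (-0.68) and C (-0.20) and above it in culture B (0.46). With the regional level in the offset of the fit, the log2 fold change of Ptprb was -0.09. Whether the number of copies of the segment differed between the cells was not tested.

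**Figure D3:**
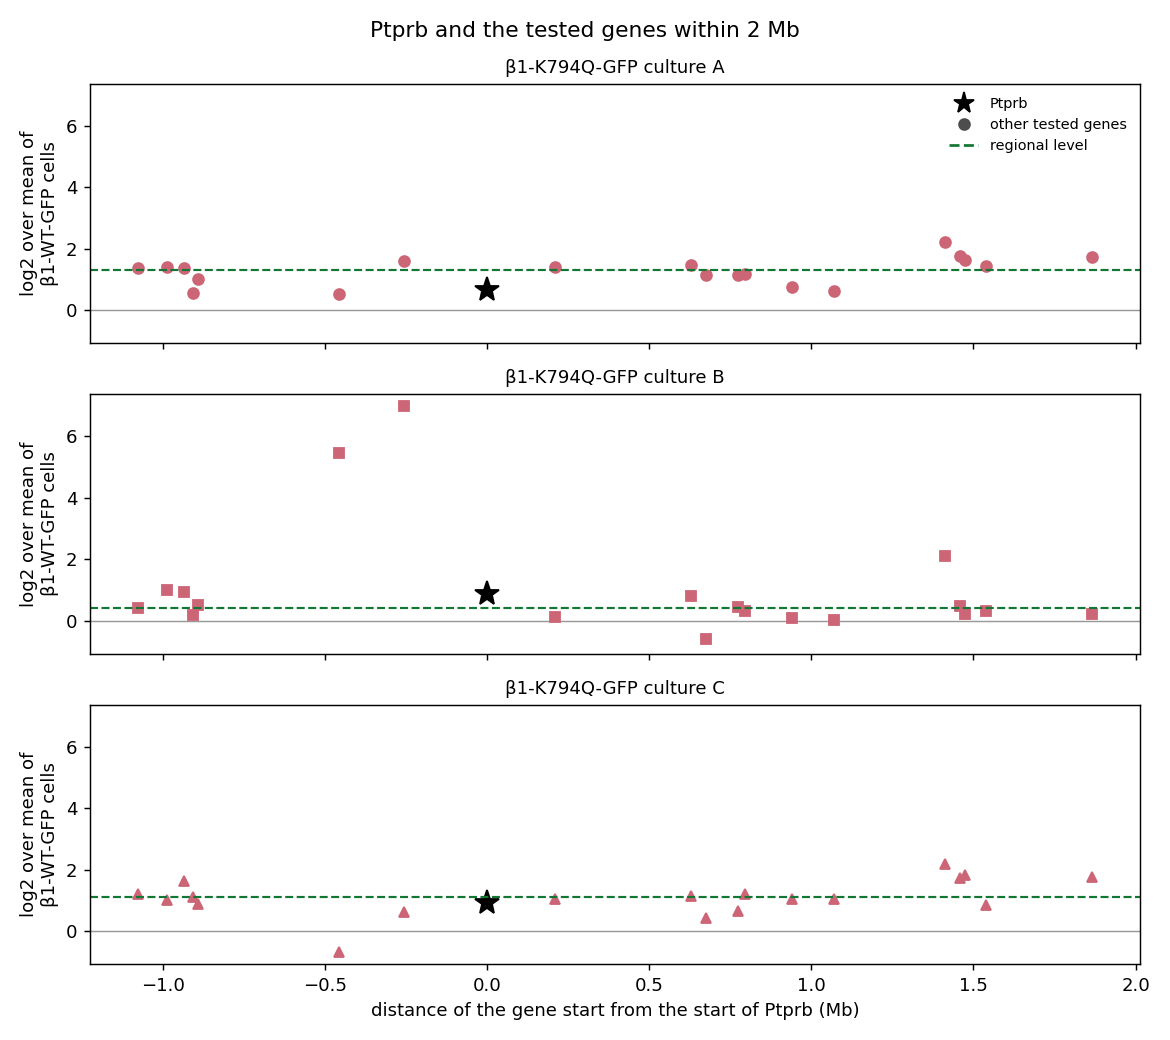
Log2 ratio to the mean of the β1-WT-GFP cells for Ptprb (star) and the 19 tested genes within 2 Mb, by distance of the gene start from that of Ptprb in Mb, in each β1-K794Q-GFP culture; the dashed line is the regional level of the 25 nearest tested genes. The regional level is 1.31 in culture A, 0.42 in culture B and 1.11 in culture C, and the points above 5 in culture B are Tspan8 and Ptprr.

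The nearest tested protein-coding genes on the side before Ptprb are Tspan8, a tetraspanin, and Ptprr, another receptor phosphatase. Ptprr measured 5.1, 222 and 2.49 CPM in cultures A to C of β1-K794Q-GFP cells against 1.66, 1.4 and 1.67 CPM in cultures A to C of β1-WT-GFP cells. Its fitted log2 fold change was 5.59 (edgeR adjusted p 0.357) and 1.26 without β1-K794Q-GFP culture B, past both thresholds each time. It missed the threshold for p without β1-WT-GFP culture A, B or C. With the culture letter as a block, Ptprr also missed it, at a log2 fold change of 2.84. Tspan8 was likewise high in β1-K794Q-GFP culture B alone, at 55.2 CPM against 0.602 and 1.64 CPM in the other cultures of the group and 0.35 to 4.18 CPM in β1-WT-GFP cells. For Tspan8 the log2 fold change of 3.42 (SE 1.81) turned to -0.67 without that culture. Ptprb itself was 2977 CPM in β1-K794Q-GFP culture B and 3031 CPM in culture C, so Ptprb did not share the excess of Ptprr and Tspan8 in culture B. On the far side, Cnot2, a subunit of the CCR4-NOT deadenylase complex, had a log2 fold change of 0.96, which was 1.25 and past both thresholds without β1-K794Q-GFP culture B, 0.66 without β1-K794Q-GFP culture A and -0.06 with the regional level in the offset. Rab3ip, an exchange factor of Rab GTPases, had a log2 fold change of 1.16, which was 0.97 and under the fold threshold without β1-K794Q-GFP culture A and 0.21 with the regional level in the offset. Mdm2, which encodes a ubiquitin ligase of p53 and starts 1.413 Mb away, was the only neighbour with an edgeR adjusted p of at most 0.05 (0.0474). It measured 87.7, 92.2 and 133 CPM in cultures A to C of β1-WT-GFP cells and 475, 437 and 465 CPM in cultures A to C of β1-K794Q-GFP cells. Mdm2 had a fitted log2 fold change of 2.14 (SE 0.23), between 2.02 and 2.36 with 1 culture left out and 1.25 with the regional level in the offset, past both thresholds each time. Its edgeR adjusted p ranged from 0.0255 to 0.332 with 1 culture left out, over 0.05 in 4 of these 6 fits. The edgeR adjusted p of Mdm2 was 0.0722 with at least 10 counts asked of every culture. It was 0.266 with the culture letter as a block and 0.237 with the regional level in the offset. Other alternatives kept the edgeR adjusted p of Mdm2 under 0.05. It was 0.0468 with RLE in place of TMM normalization, 0.0404 without the filter on low counts and 0.00327 without both cultures that stood apart. The adjusted p of Mdm2 was 1.67e-14 by DESeq2 and 5.01e-08 by the likelihood ratio test.

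Levels of different genes were compared per kilobase of annotated exon, with 13.3 kb for Ptprb, 4.92 kb for Tie1, 4.71 kb for Tek and 3.69 kb for Angpt2. In β1-WT-GFP cells the mean levels were Tie1 (211 ± 47.8 CPM per kb), Ptprb (124 ± 31.4), Tek (117 ± 35.3) and Angpt2 (5.54 ± 1.22; SD, n = 3 each). In β1-K794Q-GFP cells they were Tie1 (217 ± 53.3 CPM per kb), Ptprb (213 ± 21.2), Tek (145 ± 50.5) and Angpt2 (7.9 ± 6.19; SD, n = 3 each). The order of single cultures differed from that of the means: among β1-WT-GFP cells, A and B had Tie1, Tek and Ptprb and C had Ptprb, Tie1 and Tek, and among β1-K794Q-GFP cells, A and C had Ptprb, Tie1 and Tek and B had Tie1, Ptprb and Tek. The place of Ptprb above Tek in the mean of β1-WT-GFP cells and of Tie1 above Ptprb in that of β1-K794Q-GFP cells thus each came from the culture that stood apart. Angpt2 was below these 3 genes in each culture. Among 11521 tested genes with a known length, Tie1 ranked between 43 and 150 in the 6 cultures, Ptprb between 44 and 229 and Tek between 105 and 427, and Angpt2 between 3534 and 9978. Tek exceeded Angpt2 per kilobase by 6.62-fold in β1-K794Q-GFP culture A and by 97.4-fold in culture C, and by 11.8-fold to 30.4-fold in β1-WT-GFP cells.

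**Figure D4:**
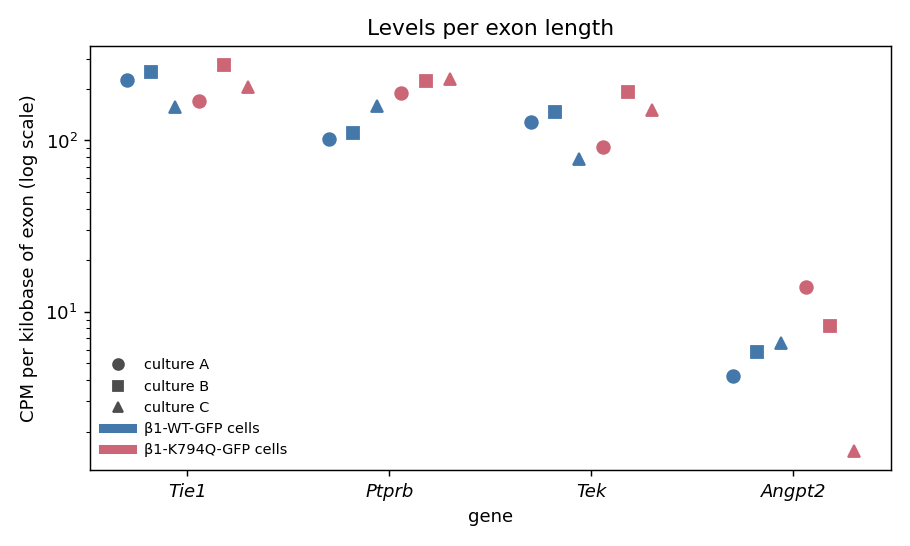
Levels of Tie1, Ptprb, Tek and Angpt2 in CPM per kilobase of annotated exon on a log axis, 1 point per culture, with β1-WT-GFP cells in blue and β1-K794Q-GFP cells in red. The receptor and phosphatase genes lie between 77.7 and 275 CPM per kb and Angpt2 between 1.54 and 13.9 CPM per kb.

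The ratio of Tie1 to Tek within a culture, both per kilobase, was 1.75, 1.72 and 2.03 in cultures A to C of β1-WT-GFP cells and 1.86, 1.43 and 1.36 in cultures A to C of β1-K794Q-GFP cells. Tie1 was above Tek in each culture, and the groups overlapped through β1-K794Q-GFP culture A. The log2 ratio differed by -0.25 (exact permutation p = 0.3, 0.4 adjusted over the 2 ratios tested). The ratio of Ptprb to Tek was 0.799, 0.754 and 2.06 in cultures A to C of β1-WT-GFP cells and 2.05, 1.16 and 1.52 in cultures A to C of β1-K794Q-GFP cells. The ratio of β1-WT-GFP culture C, where Tek was at its lowest, lay with that of β1-K794Q-GFP culture A, and the groups overlapped. The log2 ratio of Ptprb to Tek differed by 0.51 (exact permutation p = 0.4, adjusted 0.4), by 0.98 without β1-WT-GFP culture C and by 1.18 without β1-K794Q-GFP culture B as well.

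The genes whose log2 CPM followed each member most closely over the 6 cultures were taken from 11484 tested genes with a mean of at least 1 CPM. For Tek they were Cmtm6 (r = 0.996), Ptgs1 (0.99) and Ppp6r2 (0.99), and Ptgs1 had 140.4, 169 and 74.9 CPM in cultures A to C of β1-WT-GFP cells and 88.8, 221 and 154 CPM in cultures A to C of β1-K794Q-GFP cells. For Tie1 they were Tnfrsf1a (0.99), 1700020I14Rik (0.98) and Bmi1 (0.98). For Ptprb they were Cep135 (0.997), Rb1 (0.995) and Gmds (0.99), none of which is on chromosome 10, and for Angpt2 they were Polr2g (0.99), Ogg1 (0.98) and Emc4 (0.97). With 6 cultures high values of r are common: 215 genes reached an r of at least 0.9 with Ptprb, 178 with Tie1, 89 with Tek and 24 with Angpt2. None of these 12 genes was past both thresholds.

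Among adaptors and effectors of Tie2, 0 of 15 tested genes were past both thresholds by edgeR, DESeq2 or the likelihood ratio test (5.19%, 5.99% and 6.26% of all tested genes), 2 had an unadjusted p of at most 0.05 by edgeR (10.2% of all tested genes did), and the median log2 fold change was 0.13. Shc1, an adaptor of receptor tyrosine kinases, measured 239, 217 and 228 CPM in cultures A to C of β1-WT-GFP cells and 133, 172 and 159 CPM in cultures A to C of β1-K794Q-GFP cells. The β1-K794Q-GFP cultures were all below the β1-WT-GFP cultures for Shc1, which holds for 8.12% of all tested genes, and its log2 fold change of -0.56 (SE 0.17) had an edgeR adjusted p of 0.323. Pik3cb, a catalytic subunit of PI3-kinase, had a log2 fold change of 0.80 (SE 0.30, edgeR adjusted p 0.419) and was past both thresholds without β1-WT-GFP culture C. Nos3, the endothelial nitric oxide synthase downstream of Akt, ranged from 361 to 1227 CPM in β1-K794Q-GFP cells and from 586 to 827 CPM in β1-WT-GFP cells.

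Foxo1 is held inactive by Tie2 and Akt signalling and drives Angpt2. Of the Foxo factors and their target genes, 0 of 11 tested were past both thresholds by any of the 3 tests (5.19% to 6.26% of all tested genes) and 0 were under 0.05 by the unadjusted p of edgeR (10.2%), with a median log2 fold change of -0.11. Foxo1 measured 81.4, 98.1 and 195 CPM in cultures A to C of β1-WT-GFP cells and 95.8, 90.6 and 97.6 CPM in cultures A to C of β1-K794Q-GFP cells. The high value of Foxo1 was in β1-WT-GFP culture C, where Angpt2 was 24.3 CPM. Without both cultures that stood apart, 2 genes of this list, Bcl6 and Sesn3, were lower past both thresholds and 0 were higher, against 4.11% and 10.1% of all genes tested in that fit.

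Among transcription factors of endothelial promoters, 3 of 17 tested genes were higher and 1 was lower past both thresholds by edgeR, against 3.48% and 1.71% of all tested genes. By DESeq2 and by the likelihood ratio test, 5 each were past both (5.99% and 6.26% of all tested genes), and DESeq2 added Gata3. The median log2 fold change of this list was 0.07. Like the other lists, it was chosen with earlier results of these data known, so these shares describe the list and do not test it. Ets1, an ETS factor, measured 201, 214 and 217 CPM in cultures A to C of β1-WT-GFP cells and 427, 451 and 723 CPM in cultures A to C of β1-K794Q-GFP cells. It was higher in each β1-K794Q-GFP culture, with a log2 fold change of 1.34 (SE 0.26, edgeR adjusted p 0.139), and remained past both thresholds with each culture left out. Klf4, a factor induced by flow, measured 71, 72.6 and 102 CPM in cultures A to C of β1-WT-GFP cells and 192, 283 and 153 CPM in cultures A to C of β1-K794Q-GFP cells (log2 fold change 1.36, SE 0.29, edgeR adjusted p 0.161). Foxc2, a forkhead factor of lymphatic and arterial endothelium, measured 12.4, 13.6 and 33.7 CPM in cultures A to C of β1-WT-GFP cells and 3.66, 4.34 and 3.87 CPM in cultures A to C of β1-K794Q-GFP cells. The fitted log2 fold change was -2.33 (SE 0.45, edgeR adjusted p 0.136) and -1.70 without β1-WT-GFP culture C. For Ets1, Klf4 and Foxc2 the adjusted p of DESeq2 was 2.61e-04, 0.00308 and 4.26e-04. That of the likelihood ratio test was 0.00926, 0.0129 and 0.00174. These tests placed 477 and 318 of all tested genes at an adjusted p of at most 0.05, against 21 by the quasi-likelihood test. Epas1, which encodes HIF-2α, had a log2 fold change of 1.25 (SE 0.50, edgeR adjusted p 0.468) and was not past both thresholds without β1-K794Q-GFP culture B (1.35) or C (0.80) or without β1-WT-GFP culture A (1.02) or B (1.06). Its adjusted p was 0.207 by DESeq2 and 0.331 by the likelihood ratio test. The count was 4 higher and 1 lower without β1-WT-GFP culture C, where Fli1 was added (5.99% and 2.39% of all genes in that fit), and 2 higher and 1 lower without β1-K794Q-GFP culture B (5.25% and 2.7%). By the fit Ets1 was 2.53-fold higher in β1-K794Q-GFP cells, whereas the values were 1.24-fold for Tek and 1.03-fold for Tie1, and the difference between these genes was not tested.

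Of the substrates of VE-PTP and related receptor phosphatases, 1 of 4 tested genes was higher past both thresholds, against 3.48% of all tested genes. This was Ptprj, a receptor phosphatase also called DEP-1, with 32.1, 47.8 and 25.6 CPM in cultures A to C of β1-WT-GFP cells and 103, 56.7 and 55.5 CPM in cultures A to C of β1-K794Q-GFP cells. The fitted log2 fold change was 1.03 (SE 0.35, edgeR adjusted p 0.372), and it was not past both thresholds without β1-K794Q-GFP culture A (0.68), β1-WT-GFP culture A (0.97) or β1-WT-GFP culture C (0.86). Cdh5, which encodes VE-cadherin, had a log2 fold change of 0.38 (SE 0.52), and Kdr, which encodes VEGFR2, of -0.43 (SE 0.41). The receptor phosphatase genes Ptpro and Ptprq had 0 counts in all 6 cultures.

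Among extracellular partners and sheddases of the receptors, 0 of 7 tested genes were past both thresholds by any of the 3 tests (5.19% to 6.26% of all tested genes) and 0 were under 0.05 by the unadjusted p of edgeR (10.2%), a list too short for such shares to show, with a median log2 fold change of 0.20. Adam10 and Adam17, proteases that shed cell surface receptors, were higher in each β1-K794Q-GFP culture than in each β1-WT-GFP culture, as were 8.45% of all tested genes, with log2 fold changes of 0.38 (SE 0.20, edgeR adjusted p 0.62) and 0.23 (SE 0.16, edgeR adjusted p 0.739). Mmp14, a membrane-bound protease that sheds Tie2, measured 99.7 and 121 CPM in cultures A and C of β1-K794Q-GFP cells, 0.395 CPM in culture B and between 119 and 159 CPM in β1-WT-GFP cells. Itgb1 measured 733, 915 and 1354 CPM in cultures A to C of β1-WT-GFP cells and 1146, 2677 and 1180 CPM in cultures A to C of β1-K794Q-GFP cells. Reads of the human chimera could have been counted on mouse Itgb1, so these values are uncertain. Of the further ligands and angiopoietin-like genes, only Angptl6 was tested, with a log2 fold change of -0.20 (SE 0.53). Angptl4 did not pass the filter on low counts, with 7, 15 and 13 counts in cultures A to C of β1-K794Q-GFP cells and 0, 2 and 1 counts in cultures A to C of β1-WT-GFP cells. Angptl4 was fitted only without the filter or where β1-K794Q-GFP culture A or β1-WT-GFP culture A, B or C was left out. With a culture left out, it passed the filter through the group where its counts were high. No call and no fold change are therefore given for Angptl4.

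The endothelial label was checked against marker genes. All 17 endothelial markers were tested, and their summed level was 9172, 9925 and 8841 CPM in cultures A to C of β1-WT-GFP cells and 7248, 13893 and 8344 CPM in cultures A to C of β1-K794Q-GFP cells. The most abundant of the list by mean over the 6 cultures was Pecam1, with 1779 to 2818 CPM, while Vwf was at 0.262 to 2.41 CPM. Cldn5, a tight junction protein gene, measured 267, 252 and 4.74 CPM in cultures A to C of β1-WT-GFP cells and 17.5, 0 and 24.3 CPM in cultures A to C of β1-K794Q-GFP cells (log2 fold change -3.64, SE 1.81, edgeR adjusted p 0.595). Of these markers 0 were past both thresholds by edgeR, DESeq2 or the likelihood ratio test (5.19% to 6.26% of all tested genes), 0 were under 0.05 by the unadjusted p of edgeR (10.2%), and the median log2 fold change was 0.08. Cldn5 was lower past both thresholds without β1-WT-GFP culture C (2.39% of all genes in that fit were lower), and Sox7 was so without β1-K794Q-GFP culture B (2.7%). Without both of these cultures, 2 of the 17 markers were higher and 3 lower past both thresholds, against 10.1% and 4.11% of all genes in that fit. The summed level was highest in β1-K794Q-GFP culture B, where Tek and Tie1 were also highest, and the part of this in their values was not tested. Single markers went both ways in that culture. Cdh5 and Plvap were at 3994 and 1283 CPM in culture B, against 1409 and 231 CPM in A and 1294 and 217 CPM in C. Sox17, Flt1 and Mmrn2 were at 0.296, 31.3 and 55 CPM in culture B. They were at 97.6, 142 and 510.1 CPM in A and at 205, 457 and 912 CPM in C.

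The 9 pericyte and smooth muscle markers summed to 0.35, 0.6 and 5.71 CPM in cultures A to C of β1-WT-GFP cells and 1.44, 1.58 and 3.01 CPM in cultures A to C of β1-K794Q-GFP cells, with Rgs5 and Kcnj8 at 0. Pdgfrb had the highest mean of these over the 6 cultures through 2.3 CPM in β1-WT-GFP culture C, with 0 to 0.385 CPM in the others. The 6 fibroblast markers summed to 0.612, 0.8 and 22.4 CPM in cultures A to C of β1-WT-GFP cells and 2.6, 3.65 and 2.49 CPM in cultures A to C of β1-K794Q-GFP cells, with Dcn, Lum and Thy1 at 0 and Pdgfra at 16.4 CPM in β1-WT-GFP culture C. Macrophage and blood cell markers, 7 of 8 in the table, summed to between 31.9 and 104 CPM, with Gata1 and Cd3e at 0. Of these, Cd68, a lysosomal gene that is not restricted to macrophages, was at 31 to 103 CPM, and Csf1r, a receptor of macrophages, was at 10.7 CPM in β1-WT-GFP culture C and at 0.385 to 0.774 CPM in the others. The 6 epithelial markers summed to at most 1.18 CPM, with Epcam, Krt18 and Cldn4 at 0. The part of these markers in the values of the members, among them the low Tek of β1-WT-GFP culture C, was not tested.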

How the data were processed

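Total RNA of 6 cultures was sequenced. The authors deposited raw counts per mouse gene symbol; their processing notes name bcl2fastq 2.20.0, STAR 2.7.4a, HTSeq 0.9.1 and edgeR 3.38.4 with build mm10, and strand setting and annotation are not given in the sources used here. The analysis used edgeR 4.0.16 in R 4.3.3 (filterByExpr, TMM, two-sided quasi-likelihood F-test, Benjamini-Hochberg over 11608 genes) and tested on simulated data. DESeq2 1.42.0 was an alternative. SE is the size of the log2 fold change over the square root of F. Cultures were compared on log2 CPM with a prior count of 2. Positions and exon lengths came from GENCODE M21 by symbol (21777 direct, 1265 by synonym). Tables used Python 3.11.15. Named genes were all members, list genes past both thresholds with some examples, the 3 genes most alike by Pearson r, and the 2 nearest coding genes on each side of Ptprb; other genes named were chosen after their values were seen. Members and lists were chosen with earlier results of these data known.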

Additional observations from a re-analysis of the deposited data

How the results depend on the processing

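Over 88 values recomputed under alternatives, 76 were kept. For a log2 fold change, kept means the same direction and the same joint call by both thresholds. For a ratio, which had no call, it means the same direction only, at any size. For the count it means within 1.5 times. No tested member was past both thresholds in the main fit. The unadjusted p of Ptprb was over 0.05 in 8 of 14 alternatives, among them 5 of 6 with 1 culture left out, the letter block and no filter on low counts. The 603 genes past both thresholds became 916 without a filter on low counts, 501 to 992 with 1 culture left out and 1661 without both cultures that stood apart, an alternative chosen after seeing the data. That alternative turned Tek to -0.16 and Tie1 to -0.32, and the regional level in the offset turned Ptprb to -0.09; for Tek and Tie1 the cause was not tested. With 1 culture left out, log2 fold changes ranged from -0.18 to 1.00 for Angpt2, 0.06 to 0.55 for Tek, -0.16 to 0.19 for Tie1 and 0.66 to 1.02 for Ptprb. Log2 ratio differences ranged from -0.39 to -0.17 for Tie1 to Tek and 0.26 to 0.98 for Ptprb to Tek. Whether cultures of the same letter were grown or processed together is not given in the sources used here. Same-letter cultures deviated from their group means with correlations of 0.09, 0.05 and 0.10, and cultures of different letters with -0.15 to 0.1. These few pairs cannot decide it. The letter as a block gave 571 genes, 0.12 for Angpt2, 0.29 for Tek, 0.04 for Tie1 and 0.81 for Ptprb, with no member past both thresholds. Angpt1 and its ratio to Angpt2 have no alternatives because Angpt1 had at most 3 counts in any culture, which limits any statement on it.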
